A study of Mus musculus with 7 samples.

Results

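The interferon-stimulated and MHC class I genes are a list of 40 mouse genes, chosen by name and found by their GENCODE M21 symbols among the 55487 genes of a count table. All 40 were found. By role, they comprise 5 sensors of nucleic acid, 6 signalling and transcription factors, 25 effectors and 4 genes of antigen presentation. Their levels were compared between the cervical spinal cords of 4 *Neat1*-KO; hSOD1G93A mice and 3 *Neat1*-WT; hSOD1G93A mice, all 8 weeks of age, with 1 RNA-seq library per mouse. Both genotypes carry the hSOD1G93A transgene, a mutant human *SOD1* found in familial ALS, and the *Neat1*-KO mice lack the long non-coding RNA *Neat1*. No mice without the transgene were analysed here. The transgene was kept on a mixed background of the B6 and SJL strains, and the knockout is present in every cell of the animal. Libraries are named by genotype and the replicate number of their labels, that is *Neat1*-KO replicates 1 to 4 and *Neat1*-WT replicates 2 to 4, and values of single libraries follow this order.

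Interferons are secreted proteins that bind receptors on the cell surface and act through JAK kinases on STAT proteins. Type I interferon assembles a complex, with STAT2 and IRF9 among its subunits, that binds a DNA sequence called the interferon-stimulated response element (ISRE), and the genes it switches on include sensors of viral RNA, antiviral effectors and the machinery that loads peptides onto MHC class I. Some sensors and factors are themselves interferon-stimulated, so that the pathway feeds back on itself, and in the spinal cord microglia, astrocytes, endothelial cells and neurons can all carry such genes.

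The promoters of some members are shown because they hold letters that match the ISRE. They were taken from RefSeq on GRCm38.p6, which held 33 of the 40 members, and a window of 250 bases before to 50 bases after the transcript start was searched on both strands for the ISRE letters, GAAA, any 2 bases and GAAA again. These letters were present in 19 of the 33 members (57.6%), against 3.99% of the 27025 genes with such a window. The letters of the STAT site GAS (TTCNNNGAA, the same on both strands) were in 7 of the 33 (21.2%), against 9.55% of genes. The window of *Irf7* and that of *Irf9* held no ISRE letters. The 200 bases upstream of the start are given 5′ to 3′ on the strand of the gene for *Isg15*, with 3 overlapping matches, for *Ifit1*, *Ifit3* and *Ifit3b*, with 2 each, and for *Gbp2* and *B2m*, with 1 each. Capitals mark the ISRE letters, which read TTTC, any 2 bases and TTTC where the match is on the opposite strand.
Isg15, chr4:156200819-156201018, minus strand: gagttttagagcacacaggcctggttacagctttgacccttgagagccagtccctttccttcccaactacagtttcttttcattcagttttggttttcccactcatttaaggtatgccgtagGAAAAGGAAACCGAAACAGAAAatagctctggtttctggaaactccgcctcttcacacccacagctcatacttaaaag
Ifit1, chr19:34640689-34640888, plus strand: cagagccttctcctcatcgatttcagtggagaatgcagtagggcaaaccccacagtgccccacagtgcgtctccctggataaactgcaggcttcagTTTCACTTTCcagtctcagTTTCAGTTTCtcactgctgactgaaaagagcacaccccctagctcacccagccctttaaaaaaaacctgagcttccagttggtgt
Ifit3, chr19:34583329-34583528, plus strand: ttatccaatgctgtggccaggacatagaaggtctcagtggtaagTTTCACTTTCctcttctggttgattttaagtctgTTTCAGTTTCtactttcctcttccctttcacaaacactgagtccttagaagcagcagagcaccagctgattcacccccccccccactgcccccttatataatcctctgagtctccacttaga
Ifit3b, chr19:34607757-34607956, plus strand: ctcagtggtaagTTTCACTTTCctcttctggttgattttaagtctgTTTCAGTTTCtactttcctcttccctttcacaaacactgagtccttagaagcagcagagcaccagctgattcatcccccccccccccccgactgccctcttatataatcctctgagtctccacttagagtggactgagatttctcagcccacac
Gbp2, chr3:142620463-142620662, plus strand: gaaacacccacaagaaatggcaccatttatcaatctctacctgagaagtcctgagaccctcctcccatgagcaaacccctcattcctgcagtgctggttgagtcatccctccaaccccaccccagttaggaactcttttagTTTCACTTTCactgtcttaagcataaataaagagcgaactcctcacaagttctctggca
B2m, chr2:122147487-122147686, plus strand: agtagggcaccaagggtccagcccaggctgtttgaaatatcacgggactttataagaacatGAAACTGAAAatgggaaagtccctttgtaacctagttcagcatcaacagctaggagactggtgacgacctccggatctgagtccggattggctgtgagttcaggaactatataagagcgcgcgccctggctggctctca
In *Ifit3* and *Ifit3b* the matches read alike and lie 34 bases apart, at −156 and −122 in the one and −188 and −154 in the other. A match is only a description of letters, and binding was not measured.

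Depth was similar across the 7 libraries, with total counts of 19661878 to 26031517. *Neat1* served as the check of the labels, with 4.04 to 5.52 CPM (the count of a gene relative to the total of its library) in *Neat1*-KO and 80.5 to 118 CPM in *Neat1*-WT libraries. Hox genes of the cervical level summed to 189 to 240 CPM in each library, against 0.769 to 2.47 for lumbar Hox genes. *Xist* had between 0 and 4 counts and *Ddx3y* 39.9 to 94.4 CPM in every library, whereas the methods describe sex-balanced groups of both sexes.

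The class I chains were among the most abundant transcripts of the list, and most sensors were low. Per kilobase of exon, the scale used here to set genes side by side, the median over all libraries was 24.4 CPM per kb for the 4 presentation genes, 1.75 for the 25 effectors, 1.17 for the 6 factors and 0.591 for the 5 sensors. *B2m*, the invariant light chain of class I, led with 92.1 CPM per kb and was followed by the class I heavy chain *H2-D1* (35.8), the mitochondrial interferon-stimulated gene *Ifi27* (23.8), the membrane antiviral gene *Ifitm3* (17.3) and the other heavy chain *H2-K1* (13.01). The secreted glycoprotein gene *Lgals3bp* (7.21), *Ifit3* (6.68) and the sensor *Tlr3* (5.03) came next, whereas the presentation gene *Tap1* was at 0.669. At the other end were *Oas2* (0.0761), an oligoadenylate synthetase, *Zbp1* (0.0774), a sensor of Z-form nucleic acid, and *Oasl1* (0.133). Their counts ran from 3 to 13, from 2 to 9 and from 4 to 14 per library, too few for edgeR's filter, so 37 of the 40 members were tested for the genotype. The interferon genes themselves were close to absent. Of 9 type I, II and III ligand genes, 6 had no count in any library. *Ifnb1*, *Ifna2* and *Ifng* had 3, 1 and 2 counts over all 7 libraries together. These came from *Neat1*-KO replicates 4, 3 and 2 in turn, too few to compare the genotypes. An expected count of 3 in a library would seldom give a count of 0. It corresponds to 0.114 to 0.154 CPM, and ligand RNA below this level could go undetected at this depth.

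**Figure D1:**
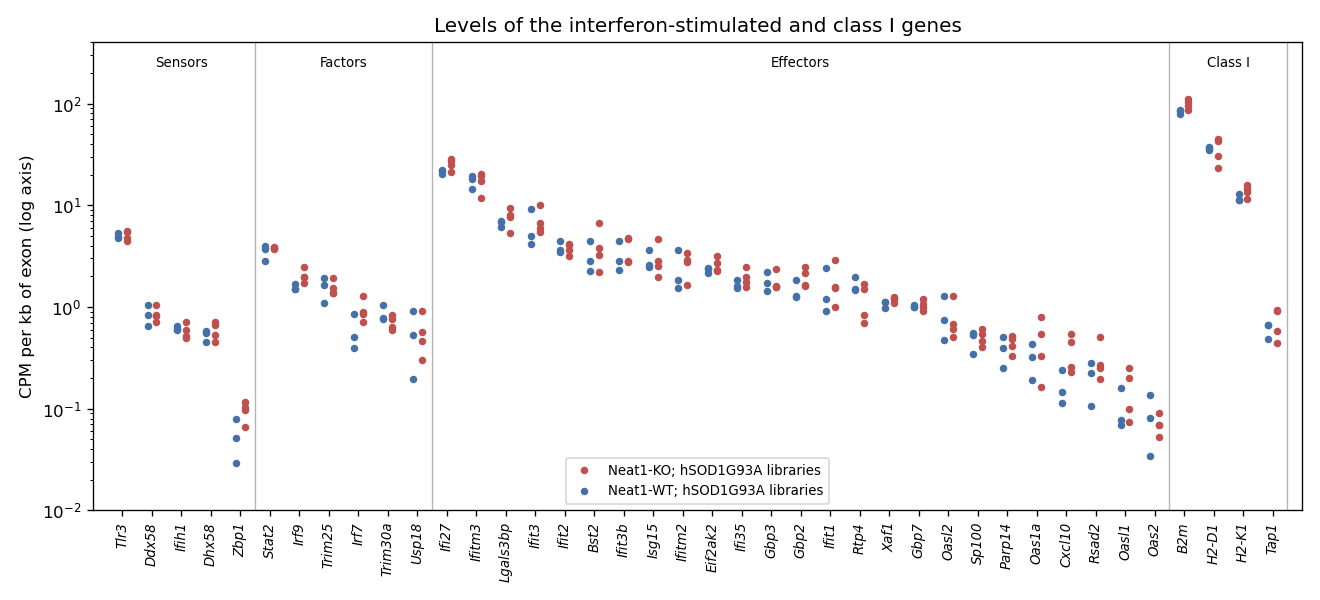
Level of each member in CPM per kilobase of exon, on a log axis, with 1 point per library (*Neat1*-KO; hSOD1G93A in red, *Neat1*-WT; hSOD1G93A in blue), ordered within each role. The members spanned from 0.0761 (*Oas2*) to 92.1 (*B2m*) CPM per kb, and the points of the genotypes overlapped for every tested gene but *Irf9*.

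Most members sat slightly higher in *Neat1*-KO than in *Neat1*-WT libraries, and none passed the threshold for a genotype difference. A call required a Benjamini-Hochberg adjusted p under 0.1 in the quasi-likelihood test of edgeR and an absolute log2 fold change over 0.58. Of the 37 members tested 0 were called, and over all 18449 genes tested 0.0325% were (6 genes). Adjusted p-values of the members ran from 0.992 to 0.999. DESeq2 and limma-voom called 0 members as well. At an unadjusted p under 0.05 there were 5 members, *Irf7*, *Irf9*, *Cxcl10*, *Ifi27* and *B2m*, or 13.5% of those tested, against 4.64% of all genes. All 5 were higher in *Neat1*-KO, as 2.24% of all genes were at this level, while 0 members were lower, as 2.4% of all genes were. Of the 37, 29 had a log2 fold change above 0 (78.4%), against 51.8% of all genes, and the median was 0.18, against 0.0062 over all genes. The members are not independent of each other, as the libraries below show, so these shares are descriptions without a test. Only *Irf9* had libraries that did not overlap between the genotypes (1 of 37, or 2.7%), where it was higher in *Neat1*-KO, against 5.47% of all genes in either direction (2.91% higher and 2.57% lower).

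Sensors and factors were set against effectors and antigen presentation. The median log2 fold change was 0.037 for the 10 sensors and factors tested and 0.20 for the 27 effectors and presentation genes, with 7 of 10 and 22 of 27 members above 0. By single role, the medians were 0.017 for 4 sensors, 0.088 for 6 factors, 0.20 for 23 effectors and 0.24 for 4 presentation genes. These medians rested on single libraries. Without *Neat1*-WT replicate 2 the factor median was −0.11, the effector median 0.041 and the sensor median −0.036. Without *Neat1*-KO replicate 2 the effector median was 0.080, and without *Neat1*-KO replicate 4 the presentation median was 0.14. The members with an unadjusted p under 0.05 were spread over 3 roles, with 2 factors, 2 effectors and 1 presentation gene, and 0 sensors.

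Precision differed widely between members. The 95% interval of 17 members lay wholly between −0.58 and 0.58, so a difference of the size needed for a call was outside it. These were 3 of 4 sensors, 2 of 6 factors, 9 of 23 effectors and 3 of 4 presentation genes. A further 14 intervals passed the upper limit only, 2 (*Trim30a* and *Rtp4*) the lower limit only, and 4 passed both.

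**Figure D2:**
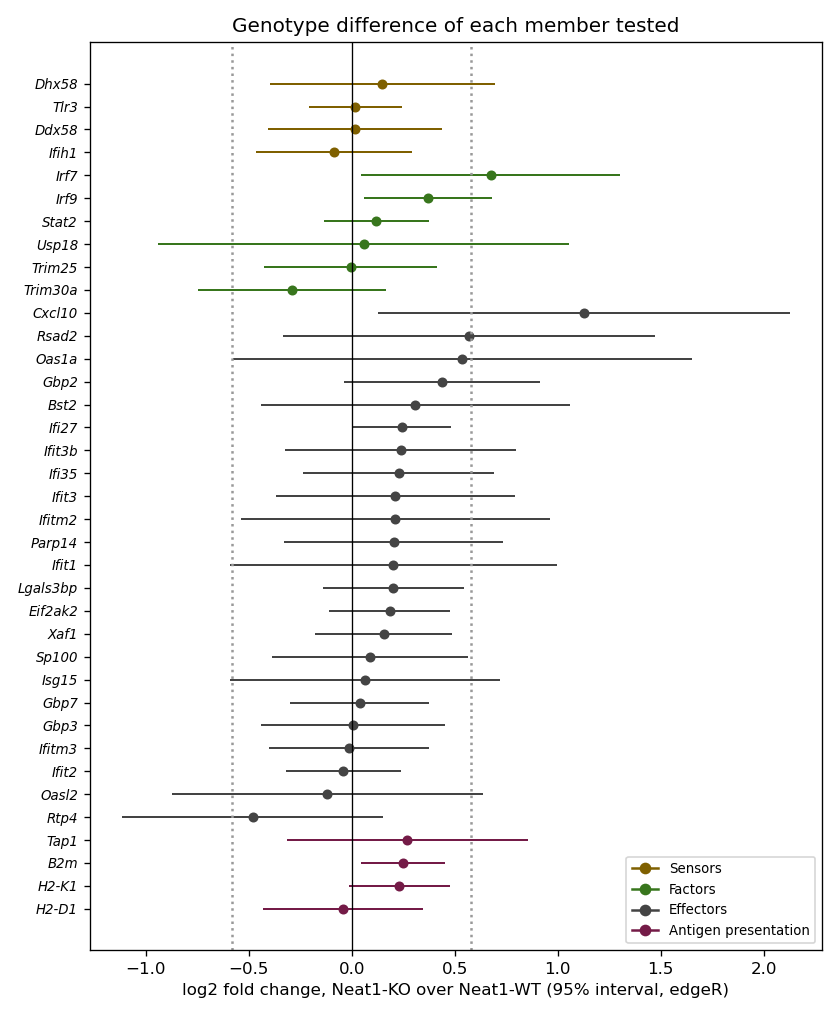
Log2 fold change of the 37 members tested, *Neat1*-KO over *Neat1*-WT, with points for the edgeR estimate, bars for its 95% interval, colours for the role and dotted lines at −0.58 and 0.58. Estimates ran from −0.48 (*Rtp4*) to 1.13 (*Cxcl10*), and 29 of 37 lay above 0.

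The cytosolic and endosomal RNA sensors were at nearly equal levels in both genotypes. *Tlr3*, the endosomal receptor for double-stranded RNA and the most abundant sensor per kb, was at 24.8, 28.4, 29.0 and 23.2 CPM in *Neat1*-KO and 28.0, 24.8 and 25.2 CPM in *Neat1*-WT libraries. The lowest and the highest library were both *Neat1*-KO. Its log2 fold change was 0.02 with a 95% interval of −0.20 to 0.24, the narrowest of the sensors. *Ddx58*, which encodes the RNA helicase RIG-I, was at 4.98, 5.93, 5.75 and 7.36 CPM in *Neat1*-KO and 4.57, 5.93 and 7.39 CPM in *Neat1*-WT libraries. Replicate 4 was the highest of both genotypes, and the difference was 0.02 (−0.40 to 0.44). *Ifih1*, encoding the related helicase MDA5, was at 4.01, 4.23, 5.75 and 4.81 CPM against 4.80, 4.95 and 5.25 CPM, and its log2 fold change was −0.09 (−0.46 to 0.29). *Dhx58*, encoding LGP2, a regulator of both helicases, was at 1.49, 2.34, 2.18 and 1.72 CPM against 1.49, 1.91 and 1.84 CPM, with a log2 fold change of 0.15 (−0.39 to 0.69). All 4 sensors overlapped between the genotypes. *Zbp1*, which was not tested, had 0.411, 0.363, 0.232 and 0.343 CPM in *Neat1*-KO and 0.181, 0.280 and 0.102 CPM in *Neat1*-WT libraries, from 2 to 9 counts each.

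Among the factors, *Irf7* and *Irf9* were higher in *Neat1*-KO libraries on average, whereas *Stat2* and *Trim25* hardly differed. *Irf9* (ENSMUSG00000002325, chr14:55603571-55610030, plus strand) encodes the DNA-binding subunit of the ISRE complex. It was at 9.30, 13.2, 10.7 and 10.6 CPM in *Neat1*-KO and 8.10, 9.15 and 8.16 CPM in *Neat1*-WT libraries. The lowest *Neat1*-KO library lay just above the highest *Neat1*-WT library. Mean levels were 10.9 ± 1.62 (SD, n = 4) against 8.47 ± 0.590 CPM (SD, n = 3). This gave a log2 fold change of 0.37 ± 0.14 (SE). Its unadjusted p was 0.0212 in edgeR and 0.0571 in the two-sided exact permutation test, which cannot go below 0.0286 with 4 and 3 libraries.

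*Irf7* (ENSMUSG00000025498, chr7:141262706-141266481, minus strand) encodes the factor that amplifies type I interferon production. It was at 3.34, 4.84, 3.20 and 2.71 CPM in *Neat1*-KO and 1.901, 3.22 and 1.48 CPM in *Neat1*-WT libraries. *Neat1*-WT replicate 3 stood within the *Neat1*-KO range, and *Neat1*-KO replicate 2 stood above all others. Mean levels were 3.52 ± 0.918 (SD, n = 4) against 2.20 ± 0.909 CPM (SD, n = 3). Its log2 fold change of 0.67 ± 0.29 (SE), a 1.6-fold difference, had an unadjusted p of 0.0361 in edgeR and an exact permutation p of 0.143.

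*Stat2*, the partner of IRF9 in the complex and the most abundant factor per kb, was at 22.4, 22.4, 21.9 and 23.2 CPM in *Neat1*-KO and 16.7, 21.9 and 23.6 CPM in *Neat1*-WT libraries. A single *Neat1*-WT library, replicate 2, was low, and without it the log2 fold change went from 0.12 to −0.017. *Trim25*, a ubiquitin ligase that acts on RIG-I, was at 7.96, 8.87, 11.2 and 7.89 CPM against 6.34, 9.57 and 11.2 CPM, a difference of −0.01 (−0.42 to 0.41) in which the genotypes fully overlapped. *Trim30a*, which dampens innate signalling, was among the few members with a lower mean in *Neat1*-KO libraries, at 2.41, 3.14, 3.43 and 2.59 CPM against 3.12, 4.30 and 3.21 CPM. Its log2 fold change was −0.29 ± 0.21 (SE, unadjusted p = 0.188 in edgeR). *Usp18*, the protease that removes ISG15 and restrains receptor signalling, was the most variable member, from 0.543 to 2.52 CPM within *Neat1*-WT and from 0.835 to 2.54 CPM within *Neat1*-KO libraries. Its interval of −0.94 to 1.05 was accordingly wide.

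**Figure D3:**
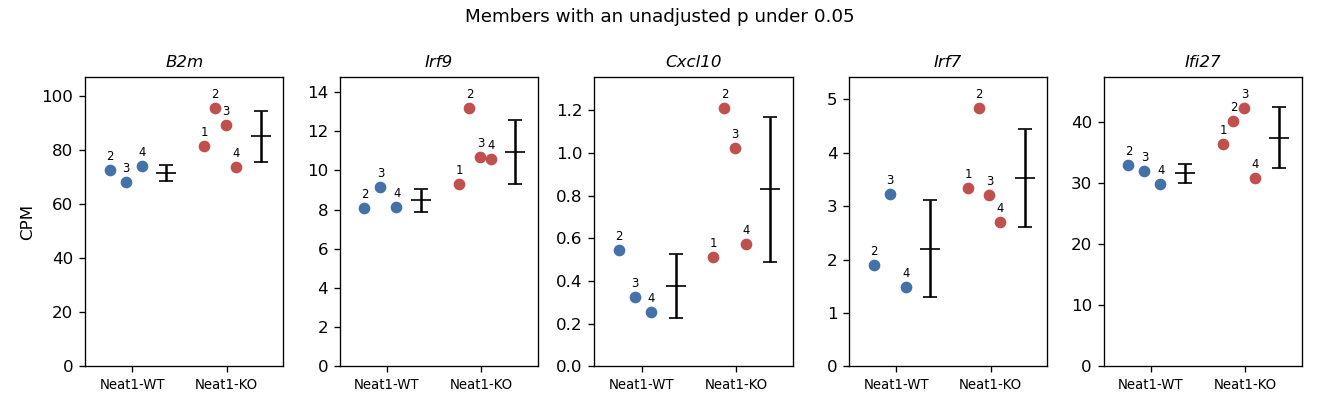
CPM of the 5 members with an unadjusted p under 0.05, with 1 numbered point per library and the mean ± SD of each genotype (*Neat1*-KO n = 4, *Neat1*-WT n = 3). *Irf9* alone showed no overlap between the genotypes, and *Neat1*-KO replicate 2 was the highest library of all for *B2m*, *Irf9*, *Cxcl10* and *Irf7*.

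The effectors were the largest role, and 19 of the 23 tested had a log2 fold change above 0. The largest belonged to *Cxcl10* (ENSMUSG00000034855, chr5:92346638-92348889, minus strand), a chemokine that attracts T cells. It was at 0.514, 1.21, 1.02 and 0.572 CPM in *Neat1*-KO and 0.543, 0.327 and 0.255 CPM in *Neat1*-WT libraries. These levels rest on 5 to 30 counts per library. *Neat1*-KO replicates 2 and 3 were high, whereas replicates 1 and 4 lay close to *Neat1*-WT replicate 2. Mean levels were 0.83 ± 0.340 (SD, n = 4) against 0.375 ± 0.150 CPM (SD, n = 3). The fold change of 2.18 had a 95% interval of 1.10 to 4.35, an unadjusted p of 0.0293 in edgeR and an exact permutation p of 0.114. Summed T cell markers were at 1.08 to 1.62 CPM in *Neat1*-KO and 0.654 to 1.27 CPM in *Neat1*-WT libraries, with 1 of the 8 markers at 0 throughout, and their part in the *Cxcl10* level was not tested.

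*Ifi27* (ENSMUSG00000064215, chr12:103434211-103440239, plus strand), the most abundant effector per kb, was at 36.4, 40.1, 42.3 and 30.9 CPM in *Neat1*-KO and 33.0, 32.0 and 29.9 CPM in *Neat1*-WT libraries. *Neat1*-KO replicate 4 lay within the *Neat1*-WT range and the other 3 above it. Mean levels were 37.4 ± 4.99 (SD, n = 4) against 31.6 ± 1.56 CPM (SD, n = 3), which amounts to 0.24 ± 0.11 (SE) on the log2 scale, with an unadjusted p of 0.0435 in edgeR and an exact permutation p of 0.143. *Ifitm3*, the second of the effectors by level per kb, did not follow it. It was at 8.07, 13.8, 13.2 and 11.6 CPM against 9.73, 12.4 and 13.3 CPM, with a log2 fold change of −0.01 (−0.40 to 0.37). *Lgals3bp* was at 15.1, 27.0, 23.01 and 21.9 CPM against 17.5, 19.8 and 19.6 CPM. Its lowest and highest libraries were both *Neat1*-KO, and its log2 fold change was 0.20 (−0.14 to 0.54), or 0.080 without *Neat1*-KO replicate 2.

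The *Ifit* genes encode proteins that bind foreign RNA and lie side by side on chromosome 19, 28.7 to 28.8 Mb from *Neat1*. *Ifit3* was at 10.4, 17.7, 11.8 and 9.57 CPM in *Neat1*-KO and 7.29, 16.2 and 8.62 CPM in *Neat1*-WT libraries, so that 1 library in each genotype, *Neat1*-KO replicate 2 and *Neat1*-WT replicate 3, stood well above the rest. The genotypes differed by 0.21 on the log2 scale (−0.36 to 0.79). *Ifit1* took the same shape, with 7.70 CPM in *Neat1*-KO replicate 2 and 6.49 CPM in *Neat1*-WT replicate 3, and 2.45 to 4.21 CPM in the other 5 libraries. *Ifit2* did not take it, at 14.3, 15.8, 16.2 and 12.4 CPM against 13.7, 14.3 and 17.3 CPM and with a log2 fold change of −0.04 (−0.32 to 0.23). The transcripts of *Ifit3* and *Ifit3b* are 97.8% identical, so reads may be split between them.

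*Bst2*, which encodes tetherin, a protein that holds budding virus to the cell, was at 2.93, 6.01, 3.43 and 1.98 CPM in *Neat1*-KO and 2.58, 4.06 and 2.04 CPM in *Neat1*-WT libraries. Its log2 fold change of 0.31 (−0.44 to 1.06) became −0.068 without *Neat1*-KO replicate 2. *Rsad2*, encoding viperin, was at 1.08, 2.22, 1.16 and 0.839 CPM against 1.22, 0.980 and 0.459 CPM, with a log2 fold change of 0.57 (−0.33 to 1.47). Here too *Neat1*-KO replicate 2 was the highest library, and without it the log2 fold change was 0.19. *Gbp2*, a guanylate-binding protein of the interferon response, was at 4.01, 6.21, 5.43 and 4.12 CPM against 3.21, 3.13 and 4.64 CPM. *Neat1*-WT replicate 4 reached into the *Neat1*-KO range, and the log2 fold change was 0.44 ± 0.22 (SE, unadjusted p = 0.0665 in edgeR). *Gbp3* and *Gbp7*, of the same family, had log2 fold changes of 0.005 and 0.037.

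*Rtp4*, a chaperone of membrane receptors, had the most negative estimate of all members. It was at 1.49, 3.22, 3.57 and 1.79 CPM in *Neat1*-KO and 3.21, 4.20 and 3.16 CPM in *Neat1*-WT libraries. *Neat1*-KO replicates 1 and 4 were low and the other two lay among the *Neat1*-WT values, for a log2 fold change of −0.48 ± 0.29 (SE, unadjusted p = 0.122 in edgeR). Of its exon length 13.9% overlaps another annotated transcript on the same strand. *Eif2ak2*, encoding the RNA-activated kinase PKR, was at 11.9, 11.5, 13.8 and 16.1 CPM against 10.999, 11.95 and 12.2 CPM, with a log2 fold change of 0.18 (−0.11 to 0.47). The other 9 effectors tested, among them *Isg15* and *Oas1a*, had estimates between −0.12 (*Oasl2*) and 0.54 (*Oas1a*), all with an unadjusted p above 0.3. *Oas1a* shares 97.5% of its sequence with *Oas1g*, and *Ifitm2* overlaps a readthrough gene over 40.9% of its exons, so their counts are uncertain, as are those of *Ifi35*, of which 16.8% overlaps an antisense gene.

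Class I antigen presentation needs a heavy chain, the light chain β2-microglobulin and the TAP transporter that brings peptides into the endoplasmic reticulum. *B2m* (ENSMUSG00000060802, chr2:122147686-122153083, plus strand) was at 81.7, 95.5, 89.1 and 73.8 CPM in *Neat1*-KO and 72.5, 68.1 and 73.9 CPM in *Neat1*-WT libraries. *Neat1*-KO replicate 4 fell just under the highest *Neat1*-WT library and the other 3 lay above all of them. Mean levels were 85.0 ± 9.37 (SD, n = 4) against 71.5 ± 3.05 CPM (SD, n = 3). The log2 fold change of *B2m* was 0.25 ± 0.092 (SE), a 1.19-fold difference with an interval of 1.04 to 1.37, and its unadjusted p, 0.0176 in edgeR, was the smallest of all members. The exact permutation p was 0.0857.

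The heavy chains did not move alike. *H2-K1* (ENSMUSG00000061232, chr17:33996017-34000347, minus strand) was at 42.9, 39.9, 33.6 and 46.8 CPM against 33.2, 38.0 and 33.1 CPM, a log2 fold change of 0.23 ± 0.11 (SE, unadjusted p = 0.0586 in edgeR). *H2-D1* (ENSMUSG00000073411, chr17:35262730-35267499, plus strand) was at 116, 79.1, 59.5 and 110 CPM against 89.7, 97.1 and 94.8 CPM. *Neat1*-WT libraries were tightly grouped, and *Neat1*-KO libraries lay on both sides of them, with replicates 1 and 4 above and replicates 2 and 3 below. Mean levels were 91.2 ± 26.7 (SD, n = 4) against 93.9 ± 3.77 CPM (SD, n = 3). On the log2 scale they differed by −0.04 (−0.42 to 0.34). *H2-K1* was likewise highest in *Neat1*-KO replicates 1 and 4, whereas *B2m* was lowest in them among the *Neat1*-KO libraries. The 2 heavy chain transcripts align at 91.2% identity over 56.0% of that of *H2-K1*. When the counts of *H2-K1*, *H2-D1*, *H2-Q4*, *H2-Q6*, *H2-Q7* and *H2-T23* were summed, the log2 fold change was 0.071. The class I genes differ in sequence between mouse strains and the mice were of mixed background, so alleles may have been counted unequally, which was not tested. *Tap1* was at 2.41, 5.04, 3.15 and 5.15 CPM against 2.63, 3.64 and 3.62 CPM, and its log2 fold change was 0.27 (−0.31 to 0.85). It was between 0.11 and 0.13 without any 1 of *Neat1*-KO replicates 2 and 4 and *Neat1*-WT replicate 2.

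The members varied between mice of the same genotype. The median SD of the log2 level within a genotype was 0.31 over the members, against 0.17 over all genes tested, and was highest for *Usp18* (0.86). Genes were not matched for level here, and counting error at low counts adds to this SD. Other interferon-stimulated genes outside the list (40 tested) had a median SD of 0.32. The members tended to be high or low in the same mice. When each library was expressed as its deviation from the mean of its genotype, the median Pearson correlation over the 666 pairs of members was 0.34, against −0.001 over all pairs of genes tested, and 35.3% of pairs exceeded 0.5, against 18.3%. These correlations rest on 7 libraries and the members of a pair share each library, so they are given without a test. The factors (median 0.53 over 15 pairs) and the effectors (0.41 over 253 pairs) held together more than the presentation genes (−0.019 over 6 pairs).

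A few mice held many of the extreme values. *Neat1*-KO replicate 2 was the highest *Neat1*-KO library for 20 of the 37 members (54.1%), against 22.9% of all genes, and *Neat1*-WT replicate 3 was the highest *Neat1*-WT library for 19 (51.4%), against 32.2%. *Neat1*-WT replicate 2 was the lowest of its genotype for 23 members (62.2%, against 33.7% of all genes) and *Neat1*-KO replicate 1 for 17 (45.9%, against 29.5%). These libraries were picked from the members' own values, and the choice raises these shares and the next one. For 13 members (35.1%, against 8.35% of all genes), *Neat1*-KO replicate 2 and *Neat1*-WT replicate 3 were both the highest. These were the sensor *Dhx58*, the factors *Irf7*, *Irf9* and *Usp18* and the effectors *Ifit1*, *Ifit3*, *Ifit3b*, *Isg15*, *Oasl2*, *Bst2*, *Ifi35*, *Gbp3* and *Lgals3bp*. Of the 13, 6 had ISRE letters in their promoter window, 5 had none and 2 had no window. The level in *Neat1*-KO replicate 2 exceeded the next *Neat1*-KO library 1.83-fold for *Ifit1*, 1.64-fold for *Isg15* and 1.45-fold for *Irf7*, and *Neat1*-WT replicate 3 exceeded the next *Neat1*-WT library 2.02-fold, 1.42-fold and 1.69-fold. None of the 4 presentation genes took this shape.

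**Figure D4:**
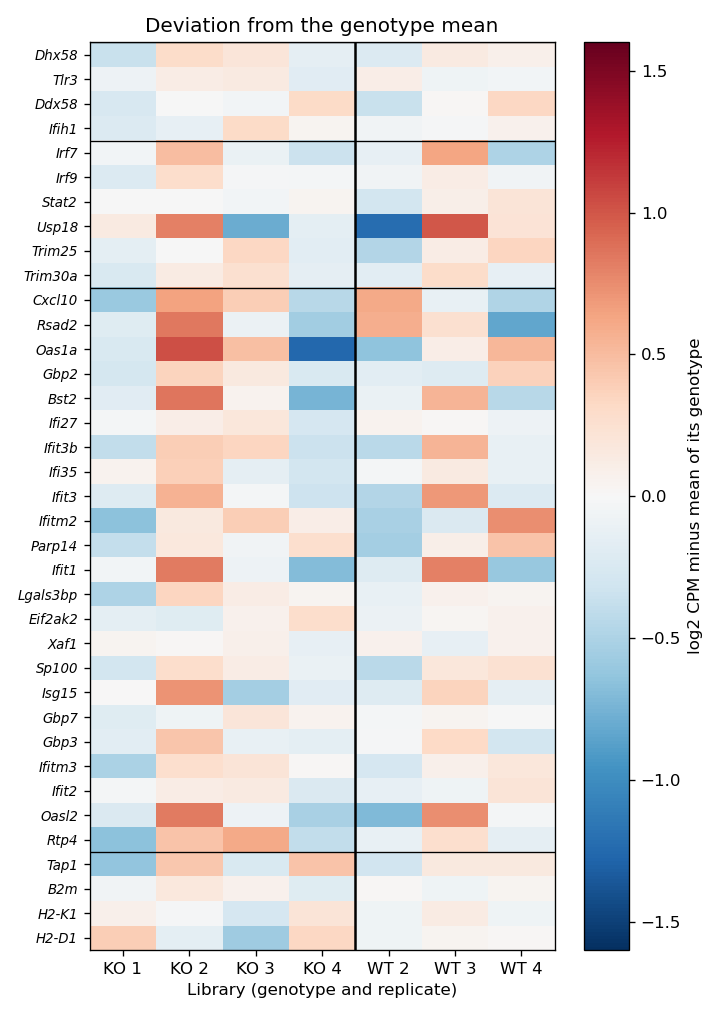
Deviation of each library from the mean of its genotype (log2 CPM) for the 37 members tested, with members in rows grouped by role, libraries in columns and higher levels in red. *Neat1*-KO replicate 2 and *Neat1*-WT replicate 3 are mostly red among the factors and effectors, whereas the class I heavy chains take a different shape.

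The number of members with a small p depended on single libraries, not only on those named above. Without *Neat1*-KO replicate 2, 0 members had an unadjusted p under 0.05 in edgeR, against 5 with all libraries and 7 without *Neat1*-KO replicate 1. There were 4 without *Neat1*-WT replicate 3, and 2 without either of *Neat1*-WT replicates 2 and 4. Summed microglial markers were at 402, 540, 490 and 470 CPM in *Neat1*-KO and 374, 459 and 520 CPM in *Neat1*-WT libraries. Within each genotype, they were highest in *Neat1*-KO replicate 2 and *Neat1*-WT replicate 4 and lowest in *Neat1*-KO replicate 1 and *Neat1*-WT replicate 2. All 13 microglial markers were detected and 0 were called. Of these, 12 of 13 were above 0 in log2 fold change (92.3%, against 51.8% of all genes), the direction of most members. Summed meningeal fibroblast markers were at 644, 977, 742 and 676 CPM in *Neat1*-KO and 715, 960 and 912 CPM in *Neat1*-WT libraries. They were highest in *Neat1*-KO replicate 2 and *Neat1*-WT replicate 3 and lowest in *Neat1*-KO replicate 1 and *Neat1*-WT replicate 2. Of the 8 meningeal markers 6 were above 0, though their sum averaged 760 CPM in *Neat1*-KO and 862 CPM in *Neat1*-WT libraries. All 7 pericyte and smooth muscle markers were above 0, and 0 of either list were called. Above 0 were 3 of 7 astrocyte, 5 of 10 endothelial and 3 of 8 neuronal markers, and 0 of these were called. Oligodendrocyte markers were all below 0 (7 of 7), and 0 were called. Of the 7, 2 were lower without overlap between the genotypes, against 2.57% of all genes. Their sums overlapped, at 33945 to 36823 CPM in *Neat1*-KO and 35497 to 43473 CPM in *Neat1*-WT libraries. Motor neuron markers summed to 192 to 255 CPM in *Neat1*-KO and 260 to 316 CPM in *Neat1*-WT libraries, without overlap. Taken singly, all 5 motor neuron markers were below 0, but 0 of the 5 were without overlap. The part of these cell types in the members' levels was not tested, and in whole tissue fewer cells of a type and less RNA per cell cannot be told apart.

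Members with ISRE letters in their promoter window did not stand far from those without. Only exact letters were counted, so a site that departs from them falls in the group without. The median log2 fold change was 0.20 for the 19 with the letters, of which 16 were above 0, and 0.15 for the 13 tested members without, of which 9 were above 0. Of the members with an unadjusted p under 0.05, *B2m* and *Cxcl10* had the letters, *Irf7* and *Irf9* did not, and *Ifi27* had no window.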

How the data were processed

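Read counts per gene were examined in 7 libraries, 4 of *Neat1*-KO and 3 of *Neat1*-WT mice, grouped by the sample labels. Per the submitters' processing notes and the methods, the authors checked reads with FastQC 0.11.7, trimmed them with Trimmomatic 0.38, aligned them to mm10 with HISAT2 2.1.0, converted them with SAMtools 1.9 and counted uniquely mapped reads with featureCounts 1.6.3. They deposited raw counts, without normalization. Because only unique reads were counted, reads that fit a gene and its copy equally are missing from both. The annotation release and strand setting are not given in the sources used here. GENCODE M21 on GRCm38 named 55227 of 55487 genes, and the other 260 held 0.0045% of counts.

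Counts were fitted over all genes with edgeR 4.0.16 in R 4.3.3 (filterByExpr, TMM factors 0.991 to 1.01, quasi-likelihood F-test, Benjamini-Hochberg adjustment). The biological coefficient of variation was 0.128. CPM were taken from TMM-scaled totals. Exact permutation tests were run on single genes. Counting floors cover counting error only, whereas p-values, SEs and 95% intervals come from the edgeR fit and include the spread between these mice. Copies were searched with BLAST 2.17.0 (at least 90% identity over 50% of the length). Figures used matplotlib 3.10.9 and pandas 2.3.3 in Python 3.11.15.

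The members and all lists were chosen with earlier results of these data known. Per-library values were given for the presentation genes, and in each other role for the 3 members with the smallest unadjusted p and the 3 with the highest level per kb (6 and 6 for effectors). *Usp18*, *Zbp1*, *Ifit1*, *Gbp3* and *Gbp7* were added after their values were seen. Of the pathway genes, the 2 with the smallest p, *Ifnar1*, *Irf3* and *Irf1* were named, and 1 further gene is not reported here. Alternatives were other scaling factors, filters and thresholds, DESeq2 1.42.0, limma-voom (limma 3.58.1), *Xist* as a covariate, the replicate number as a block, summed copies and each library left out in turn. The fits were tested on simulated data.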

Additional observations from a re-analysis of the deposited data

Results flagged for a closer look

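A library stood far from the other 3 of its genotype for 2 genes among 46 examined, where chance alone gives about 1 in 20, or 2.3. *Gbp3* was at 7.78 CPM in *Neat1*-KO replicate 2 and at 5.09 to 5.24 CPM in the 3 libraries of the same genotype, a gap of 0.942 of the range of the 4. *Irf1*, a factor of the pathway outside the 40 members, was at 5.56 CPM in the same library and at 4.92 to 4.996 CPM in the others, a gap of 0.879 of the range.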

How the results depend on the processing

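No member was called under any alternative, and the lowest adjusted p over 596 recomputed member values was 0.469. The number of members above 0 ranged from 20 to 31 of those tested and their median log2 fold change from 0.039 to 0.22. Of the 37 members, 17 kept their sign throughout and 20 did not. Over all genes, 6 were called by edgeR, 124 without a filter on low counts, 27 by DESeq2, 29 by DESeq2 with a filter of 0.5 CPM in 1 library and 3 to 31 with each library left out (31 without *Neat1*-KO replicate 1). Members with an unadjusted p under 0.05 numbered 8 without the filter, 2 with the *Xist* covariate and 0 to 7 with a library left out (2 without either of *Neat1*-WT replicates 2 and 4). Of pathway genes outside the 40, 1 (*Cd74*) was called without the filter, 3 had an unadjusted p under 0.05 with the covariate, and 3 to 10 with a library left out. The cause of these changes was not tested.

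The *Xist* covariate rests on 0 to 4 counts. With it the log2 fold change turned for *Tlr3* (−0.048), *Ifit3* (−0.12), *Bst2* (−0.27), *H2-D1* (0.039), *Irf1* (−0.015), *Usp18* (−0.33), *Ifit1* (−0.39), *Ifit3b* (−0.053), *Isg15* (−0.20), *Oas1a* (−0.24), *Gbp3* (−0.17) and *Sp100* (−0.014). Estimates near 0 also turned, for *Trim25* with limma-voom (0.024) and *Irf1* with median-of-ratios factors (−7.6e-05). *Gbp3* turned with median-of-ratios factors (−0.00046), DESeq2 (−0.00043) and DESeq2 with the 0.5 CPM filter (−0.00053). With summed copies *H2-K1*, *H2-D1*, *H2-Q4*, *H2-Q6*, *H2-Q7* and *H2-T23* together were at 0.071, which is not an estimate of *H2-D1* alone.

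The replicate block gave 39 called genes and turned *Trim25* (0.066) and *Ifitm3* (0.13). Same-numbered libraries did not deviate together (r over genes of −0.19, −0.11 and −0.018). The labels do not say whether the numbers pair the mice. These few correlations, of deviations centred within each genotype, cannot decide it.

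With a library left out, the log2 fold change crossed 0 for *Ddx58* (−0.14 to 0.20), *Tlr3* (−0.032 to 0.075), *Stat2* (−0.017 to 0.22), *Trim25* (−0.21 to 0.17), *Ifit2* (−0.11 to 0.066), *Ifit3* (−0.017 to 0.64), *Bst2* (−0.068 to 0.63), *Ifitm3* (−0.14 to 0.12), *H2-D1* (−0.18 to 0.12), *Irf1* (−0.13 to 0.17), *Usp18* (−0.35 to 0.65), *Ifit1* (−0.16 to 0.72), *Isg15* (−0.24 to 0.27), *Oasl2* (−0.48 to 0.33), *Ifitm2* (−0.025 to 0.67), *Parp14* (−0.025 to 0.45), *Gbp3* (−0.17 to 0.18), *Gbp7* (−0.032 to 0.094) and *Sp100* (−0.10 to 0.20). Log2 fold changes that kept their sign also moved, to 0.11 for *Oas1a*, 0.19 for *Rsad2* and 0.081 for *Ifi35* without *Neat1*-KO replicate 2, 0.041 for *Ifit3b* without *Neat1*-WT replicate 2, 0.078 for *Eif2ak2* without *Neat1*-KO replicate 4, −0.13 for *Trim30a* without *Neat1*-WT replicate 3 and −0.31 for *Rtp4* without *Neat1*-KO replicate 1. The median of the effectors was −0.014 with the *Xist* covariate. The median of the factors ranged from −0.11 to 0.29, and the median correlation among members, an alternative added after seeing the data, from 0.22 (without *Neat1*-KO replicate 2) to 0.43. Depth limited *Zbp1*, *Oas2*, *Oasl1* and the ligands, which were not tested.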

Other observations

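Genes of the same pathway outside the 40 were also measured. Of 116 listed, 96 were tested and 0 were called (background 0.0325% of all genes), 3 were higher and 3 lower in *Neat1*-KO at an unadjusted p under 0.05 (6.25%, against 4.64% of all genes), and the median log2 fold change was 0.093. The interferon receptor subunit gene *Ifnar1* was at 36.4 to 39.2 CPM in *Neat1*-KO and 32.9 to 39.3 CPM in *Neat1*-WT libraries, with a log2 fold change of 0.082. *Irf3*, the factor downstream of the sensors, was at 17.5 to 21.2 CPM against 16.6 to 19.1 CPM, with a log2 fold change of 0.11. In both the genotypes overlapped.

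A list of 14 further class I genes covered loading, other heavy chains and regulation, and all were tested. It held 5 of the 6 pathway genes with an unadjusted p under 0.05, in both directions (35.7%, against 4.64% of all genes). Of the genes whose proteins fold or load the heavy chain, *Pdia3* and *Calr* were lower in *Neat1*-KO libraries by that measure, though not called, whereas *Canx* and *Tapbp*, chosen after their values were seen, had log2 fold changes of −0.072 (−0.21 to 0.069) and 0.19 (−0.042 to 0.43). *Pdia3*, a disulphide isomerase of the endoplasmic reticulum, was at 199, 190, 212 and 183 CPM in *Neat1*-KO and 237, 235 and 225 CPM in *Neat1*-WT libraries, without overlap. Its log2 fold change was −0.24 ± 0.070 (SE) and its adjusted p in edgeR 0.811. *Calr*, encoding calreticulin, was at 278, 290, 290 and 253 CPM against 312, 305 and 333 CPM, also without overlap, with a log2 fold change of −0.19 ± 0.071 (SE) and an adjusted p of 0.992 in edgeR. Both proteins serve folding of many other glycoproteins. *Tap2*, the partner of *Tap1*, was higher on average (16.3 ± 2.24 against 13.2 ± 1.45 CPM, mean ± SD of 4 and 3 libraries), with overlap between the genotypes and a log2 fold change of 0.31. *H2-Q6* and *H2-T24*, nonclassical class I genes, had log2 fold changes of 1.07 and −0.47. The remaining gene was *Gbp5*, at 0.55. *Tap2*, *H2-Q6*, *H2-T24* and *Gbp5* were chosen after their values were seen.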
